A study of Saccharomyces cerevisiae with 24 samples.

Results

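The MCM2-7 genes of budding yeast were examined in 8 groups of strains that differ in the transcriptional repressors Yhp1 and Yox1. The members are the 6 genes MCM2 (YBL023C), MCM3 (YEL032W), MCM4 (YPR019W), MCM5 (YLR274W), MCM6 (YGL201C) and MCM7 (YBR202W), picked by identifier from tables of 7126 genes, and all 6 passed the filter on low expression. Mcm2 to Mcm7 are the subunits of the replicative DNA helicase, a ring that is loaded onto origins in G1 and unwinds DNA in S phase. Mcm1 is a transcription factor with a similar name that is no part of this ring. It activates genes around the M/G1 transition, and Yhp1 and Yox1 are homeodomain proteins known to bind beside Mcm1 at some of its targets and to repress them for part of the cell cycle. Cdk1 phosphorylates both repressors, and the alleles yhp1-13A and yox1-9A carry mutations in those phosphorylation sites.

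RNA was sequenced from 24 asynchronous cultures in YM-1 rich medium with 2% dextrose, in 2 sets of 12 samples with 3 biological replicates per group. All strains were MATa and shared ura3∆0, leu2∆0 and, by the labels, his3∆0, where the strain list of the study names his3Δ1. One set, called here the phosphomutant set, compared wild type with the single mutants yox1-9A and yhp1-13A and their double mutant. The other, the deletion set, compared wild type with yox1∆, with yhp1∆ and with their double mutant. Wild type was the same strain in both sets, grown and collected separately with each, and it carried the tagged alleles YOX1-3V5-KanMx and YHP1-13MYC-LEU2. The mutant alleles carried these tags too (yhp1-13A-13MYC-LEU2 and yox1-9A-3V5-KanMx), while the other gene of each single phosphomutant and of each single deletion had no tag listed. The deletions were yhp1∆::LEU2, yox1∆::KanMX and, in the double, yox1∆::NatMX with yhp1∆::LEU2. yox1-9A and yox1∆ therefore had no LEU2 listed, and yhp1∆ was lys2∆0 where every other strain was met15∆0. Each group was 1 named strain, so a difference between groups cannot be told apart from any other difference between those strains.

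Depth recovered from the values was 16967873 to 18255340 fragments per sample in the phosphomutant samples and 18123679 to 18867894 in the deletion samples. A member had between 858 and 3555 fragments in a sample. As a check of the labels, YHP1 was at 0 TPM (a read count scaled for gene length and for the depth of the sample) in all 3 yhp1∆ samples and at 0 to 0.0424 TPM in the double deletion, and YOX1 was at 0.563 to 1.81 TPM in the 6 samples with yox1∆, against 30.8 to 37.2 TPM (YHP1) and 85.9 to 108 TPM (YOX1) in wild type of that set. The transcript of the remaining repressor in the single mutants was as follows. YOX1 was called lower in yhp1∆ at 38.6 to 48.7 TPM (log2 difference -1.17 ± 0.14, limma adjusted p = 0.00361), and it was at 34.0 to 38.4 TPM in yhp1-13A against 67.5 to 103 TPM in wild type of that set (-1.16 ± 0.17, 0.149). YHP1 was at 43.8 to 80.1 TPM in yox1∆ (0.83 ± 0.18, 0.139), and at 27.9 to 32.6 TPM in yox1-9A against 23.1 to 36.8 TPM in wild type of that set (0.07 ± 0.18, 0.999). In all 4 single mutants that gene has no tag listed. YHP1 without the tag overlapped wild type in yox1-9A. In each of the single mutants the loss of the tag and the mutation of the other repressor gene cannot be told apart. In the double phosphomutant, where both alleles carry tags, the log2 difference from wild type was -0.11 for YOX1 (limma adjusted p = 0.839) and -0.56 for YHP1 (0.829). The summed level of the 4 MATa markers (MFA1, MFA2, STE2 and BAR1) was 6518 to 14104 TPM in every sample, and that of the 3 MATalpha markers (MF(ALPHA)1, MF(ALPHA)2 and STE3) was 7.90 to 20.8 TPM. In the phosphomutant set 63.3% of the variance left within groups lay along 1 component, and the sign of its score put replicates 1 and 2 of wild type and of yox1-9A together with the first replicate of yhp1-13A and of the double mutant on 1 side. In the deletion set the first such component held 43.9%. The samples are bulk cultures, so a smaller share of cells at the stage that expresses a gene cannot be told apart from less RNA per cell.

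The members lie on 5 chromosomes of the R64 genome, and none is next to another. MCM2 is at chrII:174920-177526 on the minus strand, MCM3 at chrV:86937-89852 on the plus strand, MCM4 at chrXVI:596750-599551 on the plus strand, MCM5 at chrXII:691555-693882 on the plus strand, MCM6 at chrVII:117854-120907 on the minus strand and MCM7 at chrII:625772-628309 on the plus strand. The gene lengths in the deposited tables equal these spans for all 6.

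Parts of the 6 promoters are shown here because Mcm1 and the homeodomain repressors are known to act through short sites before the start codon. Both strands of the 300 bases before each start codon were searched for CCNNNNNNGG, the centre of the Mcm1 site, and for TAATTA and CAATTA, taken as homeodomain cores. The longer form TTTCCNNNNNNGG, which contains the first motif, was added after the windows had been seen. The sequences are from RefSeq, build R64, and are given 5′ to 3′ on the strand of the gene, with capitals marking matches to these motifs.
MCM2, chrII:177670-177715, minus strand, bases 189 to 144 before the start codon: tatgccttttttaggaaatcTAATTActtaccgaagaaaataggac
MCM3, chrV:86732-86784, plus strand, bases 205 to 153 before it: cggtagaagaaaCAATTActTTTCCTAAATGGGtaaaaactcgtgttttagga
MCM4, chrXVI:596694-596743, plus strand, bases 56 to 7 before it: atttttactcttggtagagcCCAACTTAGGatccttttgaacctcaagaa
MCM5, chrXII:691381-691436, plus strand, bases 174 to 119 before it: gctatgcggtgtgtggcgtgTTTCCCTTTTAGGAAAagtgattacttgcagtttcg
MCM6, chrVII:121050-121105, minus strand, bases 198 to 143 before it: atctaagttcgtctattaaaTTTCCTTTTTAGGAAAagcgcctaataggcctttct
MCM7, chrII:625526-625594, plus strand, bases 246 to 178 before it: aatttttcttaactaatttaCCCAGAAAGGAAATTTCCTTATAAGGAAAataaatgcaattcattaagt

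CCNNNNNNGG was present in the window of all 6 members, and also in 28.7% of 6001 protein-coding promoters of the same length. The longer form was present in 4 members (MCM3, MCM5, MCM6 and MCM7) and in 4.25% of promoters. In MCM5 and MCM6 the same core matched the longer form on both strands. MCM7 held 2 cores side by side. Of these, CCTTATAAGG matched the longer form on both strands and CCCAGAAAGG only on the strand opposite to the gene. The only CCNNNNNNGG of MCM2 lay outside the stretch shown, 226 to 217 bases before the start codon. TAATTA occurred only in the MCM2 window among the members and in 16.2% of promoters, and CAATTA only in that of MCM3 and in 23.2% of promoters. ATTACTT was also searched after the windows had been seen, and it overlaps the homeodomain cores of MCM2 and MCM3. It occurred in MCM2, MCM3 and MCM5 and in 8.77% of promoters. The match in MCM4 began 36 bases before the start codon, nearer than any other match in the members. These are matches of letters, and no binding was measured in these samples.

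**Figure D1:**
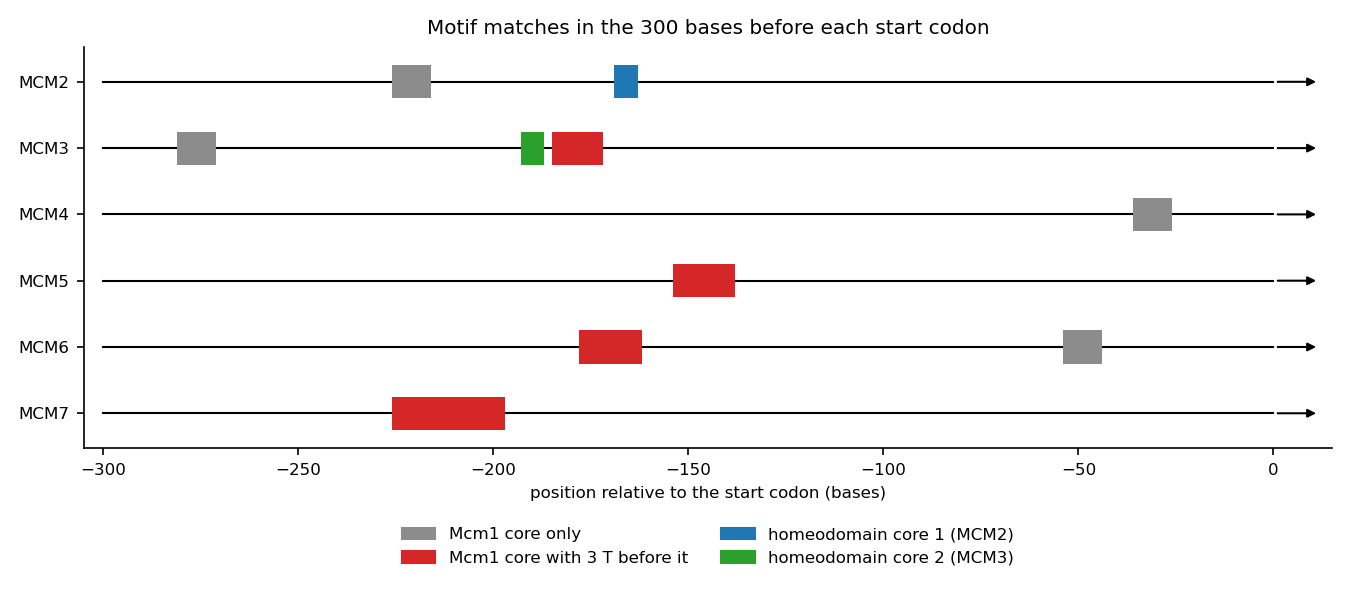
Motif matches in the 300 bases before the start codon of each member, with the position relative to the start codon in bases on the x axis. Grey boxes are CCNNNNNNGG alone, red boxes the longer form with 3 T before it on either strand, and blue and green boxes the homeodomain cores. The longer form lies between 226 and 139 bases before the start codon in 4 members and was not found in MCM2 and MCM4.

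In wild type the 6 subunit genes were expressed at levels within a factor of 2 of each other. In the phosphomutant set the order of mean TPM, which is scaled for gene length, was MCM7 (44.7), MCM3 (38.7), MCM5 (33.8), MCM4 (32.6), MCM2 (25.2) and MCM6 (23.9). Of the neighbours in this order, MCM3 and MCM5, and MCM4 and MCM2, had ranges over 3 samples that did not overlap, and the other 3 pairs overlapped. In wild type of the deletion set the order was MCM3 (38.3), MCM7 (38.1), MCM5 (32.0), MCM4 (30.8), MCM6 (22.6) and MCM2 (21.4), and only the step from MCM4 to MCM6 was free of overlap. MCM2 and MCM6 had the lowest means in all 8 groups. In yox1-9A, MCM5 (20.9) was at the levels of MCM2 (20.9) and MCM6 (20.6), with overlapping ranges. The 2 tables were scaled separately, so levels of the 2 wild types are given side by side and were not tested against each other.

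Summed over the 6 genes, wild type of the phosphomutant set had 199 ± 19.5 TPM (SD, n = 3). The sum was 149 ± 12.5 TPM (75.1% of wild type) in yox1-9A, 175 ± 22.2 TPM (88.1%) in yhp1-13A and 143 ± 21.3 TPM (71.9%) in the double phosphomutant. Wild type of the deletion set had 183 ± 19.0 TPM, yhp1∆ 180 ± 10.9 TPM (98.0%), yox1∆ 253 ± 15.9 TPM (138%) and the double deletion 270 ± 5.62 TPM (147%). The sums of yox1-9A (135 to 159) and of the double phosphomutant (123 to 165) lay below those of wild type (176 to 211), and the sums of yox1∆ (237 to 268) and of the double deletion (267 to 277) lay above those of wild type (161 to 196).

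**Figure D2:**
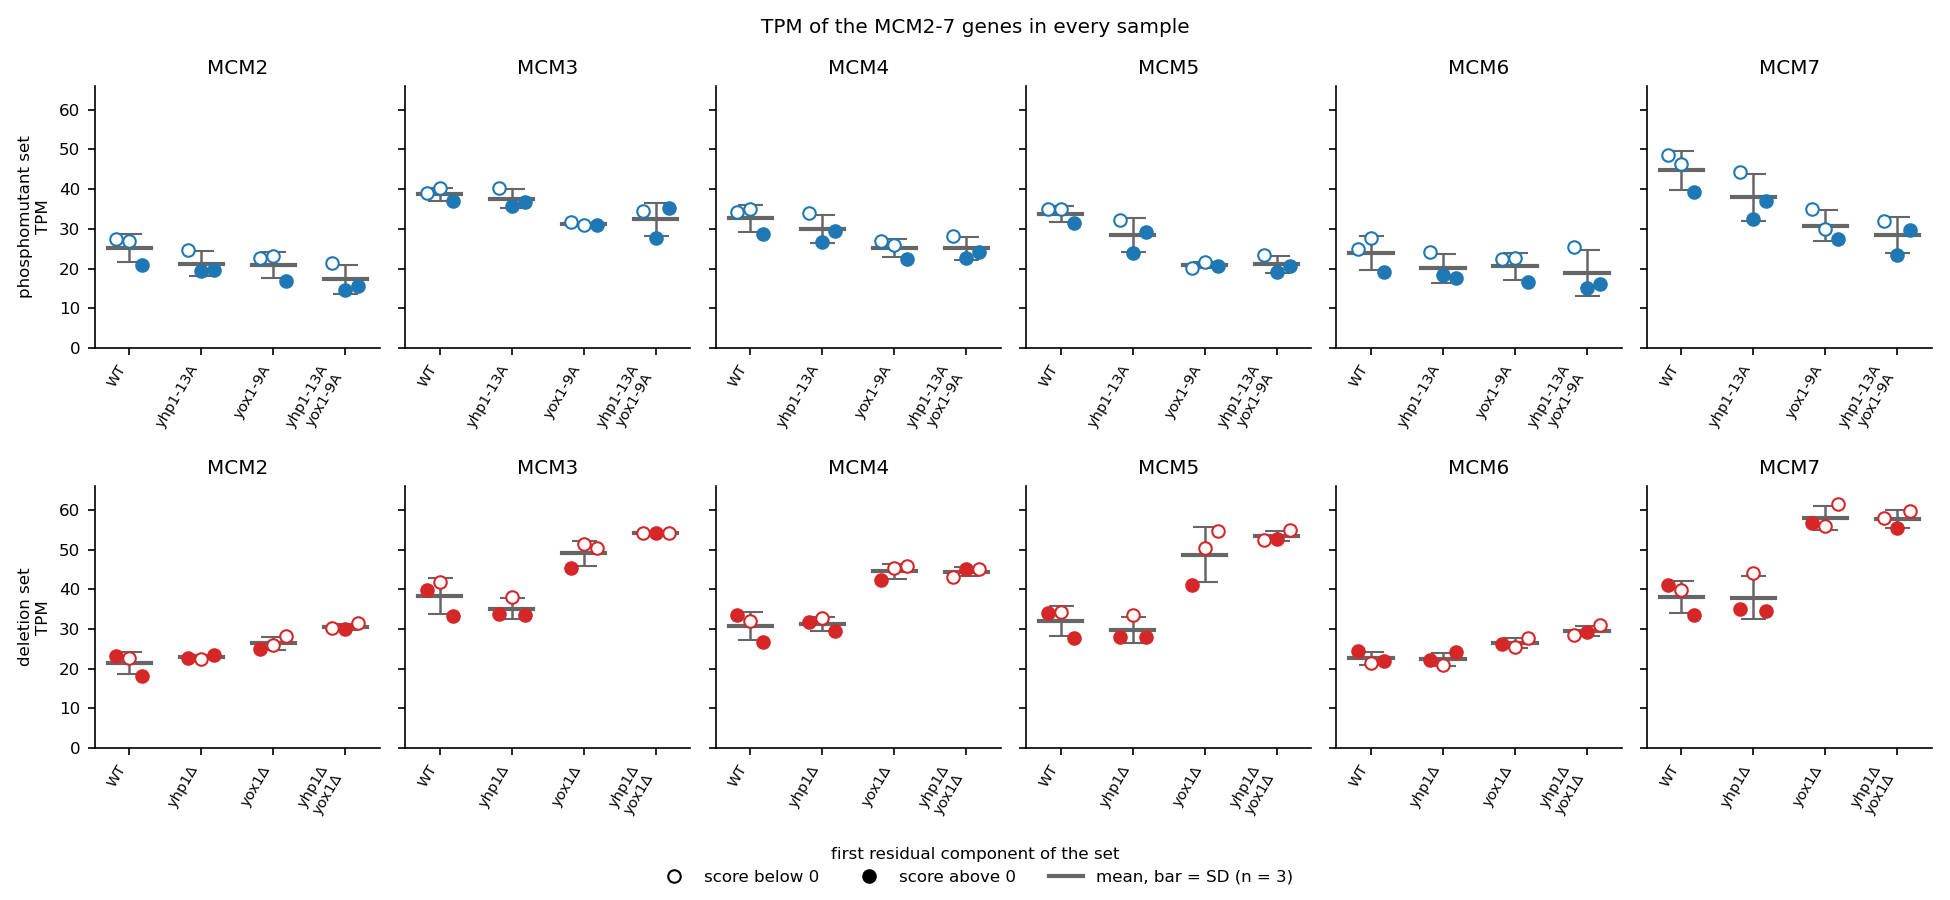
TPM of each member in every sample, with the phosphomutant set above and the deletion set below. Each point is 1 sample, lines and bars are the mean and SD of 3 samples, and open and filled points are samples with a score below and above 0 on the first residual component of the set. In the phosphomutant set the filled points of MCM2, MCM4, MCM6 and MCM7 lie below the open points of the same strain. In the deletion set all 6 members are higher than wild type in both strains with yox1∆.

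The first question was whether the phosphorylation site mutations changed helicase gene expression. All 6 members had lower means than wild type in each of the 3 phosphomutant strains, with the largest differences for MCM5 and MCM7 where yox1-9A was present. None passed the test. Differences are given as log2 of TPM + 1 with the SE from limma, and a gene was called at a Benjamini-Hochberg adjusted p below 0.1 over all genes tested. Overlap of samples is described for named genes only, and the share of all genes without overlap was not counted. For 3 samples against 3 without overlap, an exact permutation test cannot go below p = 0.1.

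MCM5 was at 35.0, 34.9 and 31.5 TPM in wild type replicates 1 to 3. It was at 20.2, 21.8 and 20.7 TPM in yox1-9A, at 32.1, 23.8 and 29.3 TPM in yhp1-13A, and at 23.5, 19.2 and 20.7 TPM in the double mutant. All samples with yox1-9A lay below all wild type samples, and yhp1-13A overlapped wild type. Relative to wild type, MCM5 had a log2 difference of -0.67 ± 0.14 in yox1-9A (limma adjusted p = 0.111), -0.66 ± 0.14 in the double mutant (0.337) and -0.25 ± 0.14 in yhp1-13A (0.908).

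MCM7 was at 48.7, 46.3 and 39.2 TPM in wild type. It was at 44.3, 32.5 and 37.0 TPM in yhp1-13A, at 35.0, 29.8 and 27.5 TPM in yox1-9A, and at 32.1, 23.3 and 29.6 TPM in the double mutant. As for MCM5, the samples of yox1-9A and of the double mutant were all below wild type. MCM7 had a log2 difference of -0.53 ± 0.16 in yox1-9A (limma adjusted p = 0.790), -0.65 ± 0.16 in the double mutant (0.619) and -0.24 ± 0.16 in yhp1-13A (0.908).

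MCM3 was at 39.1, 40.2 and 36.9 TPM in wild type, 31.6, 30.9 and 31.1 TPM in yox1-9A, 40.4, 35.7 and 36.8 TPM in yhp1-13A, and 34.4, 27.7 and 35.3 TPM in the double mutant. MCM4 was at 34.2, 35.0 and 28.6 TPM in wild type, 33.9, 26.7 and 29.4 TPM in yhp1-13A, 27.0, 25.9 and 22.5 TPM in yox1-9A, and 28.2, 22.7 and 24.3 TPM in the double mutant. For both genes yox1-9A and the double mutant did not overlap wild type, and yhp1-13A did. Their log2 differences from wild type were -0.30 (MCM3) and -0.36 (MCM4) in yox1-9A, -0.25 and -0.37 in the double mutant, and -0.04 and -0.12 in yhp1-13A, each with an SE of 0.12 (MCM3) or 0.14 (MCM4).

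MCM2 was at 27.4, 27.0 and 21.0 TPM in wild type, 24.8, 19.4 and 19.6 TPM in yhp1-13A, 22.5, 23.1 and 17.0 TPM in yox1-9A, and 21.5, 14.6 and 15.7 TPM in the double mutant. MCM6 was at 24.9, 27.6 and 19.2 TPM in wild type, 24.2, 18.4 and 17.6 TPM in yhp1-13A, 22.3, 22.7 and 16.6 TPM in yox1-9A, and 25.5, 15.1 and 16.1 TPM in the double mutant. Both genes overlapped wild type in each mutant. In every strain their lowest samples were those with a score above 0 on the first residual component, wild type replicate 3 among them. The same held for MCM4 and MCM7, which had SEs of 0.14 and 0.16. The SEs of MCM2 and MCM6 were the widest of the members, at 0.19 and 0.22. The log2 differences of MCM2 and MCM6 ran from -0.21 to -0.53.

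Against wild type, 0.285% of all genes tested were called in yox1-9A (18 of 6316 genes), 0% in yhp1-13A and 0.0158% in the double mutant (1 gene). Of the 6 members 0 were called by limma in each of the 3 comparisons. At an unadjusted p below 0.05 there were 4 members in yox1-9A, 0 in yhp1-13A and 4 in the double mutant. Of all genes 3.82%, 1.06% and 2.64% reached that level. limma-voom on the recovered fragments called 1 member (MCM5), 0 and 0, and its counts over all genes are not given here. In the same order the members' median log2 difference was -0.33, -0.24 and -0.45, and that of all genes was -0.08, -0.11 and -0.12. With median-of-ratios scaling the members' medians were -0.24, -0.12 and -0.32, and MCM3 in yhp1-13A changed sign to 0.07.

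The calls depended on the fit. Same-numbered samples of wild type and yox1-9A deviated together, with correlations of 0.52 to 0.83, and with the replicate number as a block MCM5 was lower in yox1-9A at a limma adjusted p of 0.0364 while the count over all genes rose from 18 to 52. Over the other alternatives its adjusted p ran from 0.00643 to 0.318, and it was 0.164 to 0.544 with 1 sample of either group left out.

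With the sign of the residual component score as a term, limma called MCM5 (-0.67, adjusted p = 0.00643), MCM7 (-0.53, 0.0415) and MCM4 (-0.36, 0.0574) in yox1-9A. In the double mutant that term gave calls for MCM5 (-0.60, 0.0607), MCM7 (-0.55, 0.0756) and MCM2 (-0.40, 0.0964), and the replicate block gave calls for MCM5 (0.0661) and MCM7 (0.0686), although not every pair of same-numbered samples of the double mutant and wild type deviated together. The score was taken from the same data as the calls. Split by its sign, the samples with scores below 0 gave a members' median log2 difference from wild type of -0.35 in yox1-9A (2 samples against 2), -0.10 in yhp1-13A (1 against 2) and -0.31 in the double mutant (1 against 2). Those with scores above 0 gave -0.31 (1 against 1), -0.09 (2 against 1) and -0.37 (2 against 1) in the same order. With single samples in most of these arms the values are descriptions only.

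**Figure D3:**
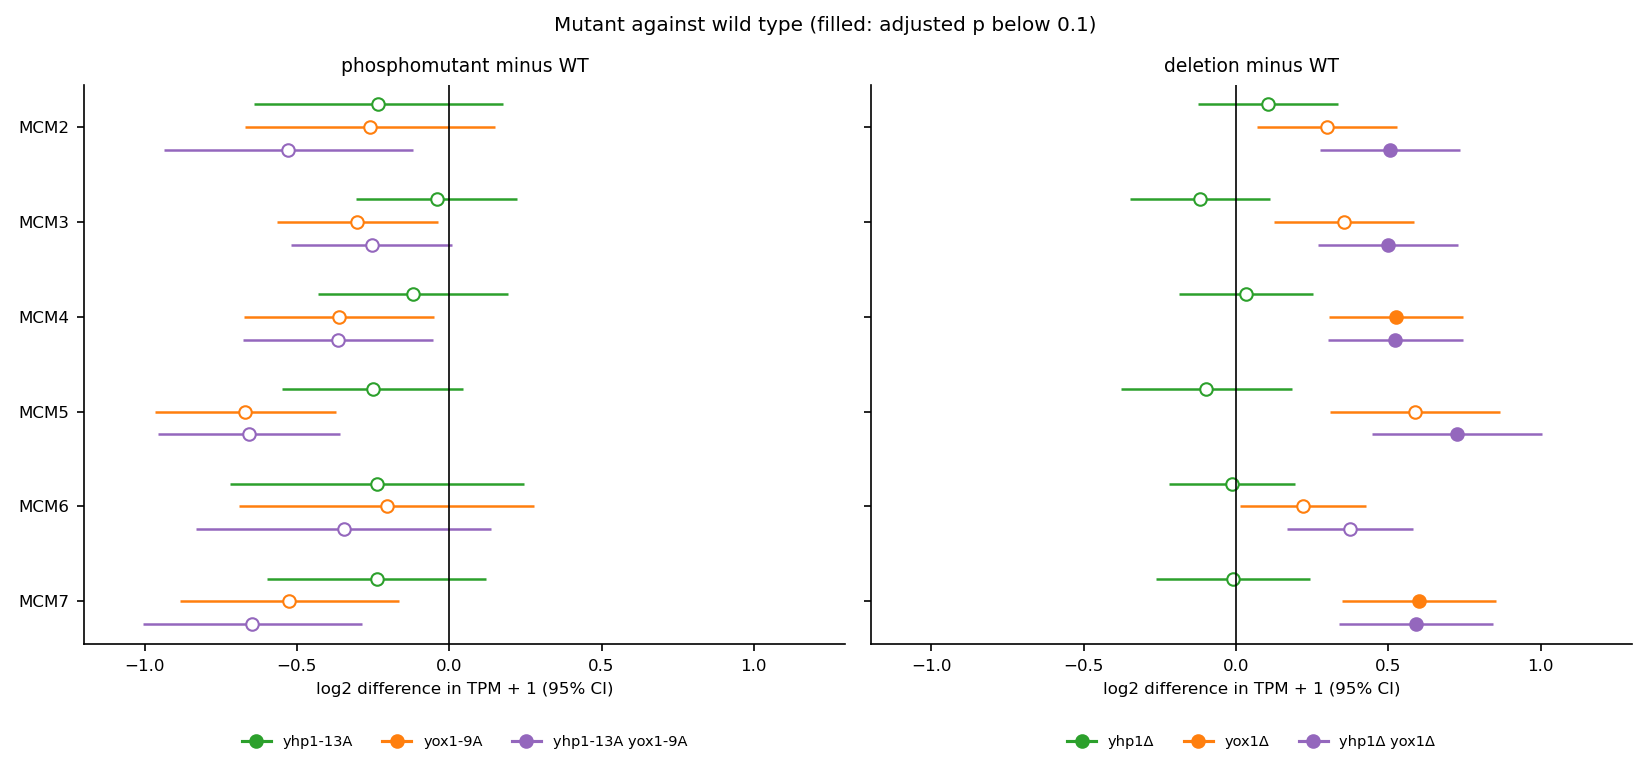
Log2 difference in TPM + 1 between each mutant and wild type of its set, with 95% confidence intervals from limma and filled points for an adjusted p below 0.1. For the phosphomutants all 18 points lie below 0 and none is filled. For the deletions the points of yhp1∆ lie between -0.12 and 0.11, and those of yox1∆ and the double deletion between 0.22 and 0.73.

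In both strains without YOX1 all 6 members had higher means than wild type. MCM4 and MCM7 were called higher in yox1∆, and all members but MCM6 were called higher in the double deletion, by 1.41-fold to 1.65-fold on the TPM + 1 scale. No member was called in yhp1∆.

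MCM7 was at 41.0, 39.8 and 33.5 TPM in wild type and at 35.0, 44.1 and 34.6 TPM in yhp1∆. It was at 56.6, 56.0 and 61.5 TPM in yox1∆ and at 58.0, 55.4 and 59.8 TPM in the double deletion. The strains with yox1∆ lay above all others, without overlap. For MCM7 the log2 value of mutant over wild type was -0.01 ± 0.12 in yhp1∆, 0.60 ± 0.12 in yox1∆ (limma adjusted p = 0.0682) and 0.59 ± 0.12 in the double deletion (0.0555), the last being 1.51-fold.

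MCM4 was at 33.5, 32.1 and 26.8 TPM in wild type and at 31.8, 32.9 and 29.4 TPM in yhp1∆. It was at 42.4, 45.4 and 46.0 TPM in yox1∆ and at 43.2, 45.1 and 45.1 TPM in the double deletion. Its values in both strains with yox1∆ fell in the same narrow range. The log2 difference of MCM4 was 0.03 ± 0.10 in yhp1∆, 0.53 ± 0.10 in yox1∆ (limma adjusted p = 0.0676) and 0.52 ± 0.10 in the double deletion (0.0509).

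MCM5 was at 34.2, 34.3 and 27.7 TPM in wild type and at 27.9, 33.6 and 28.0 TPM in yhp1∆. It was at 41.2, 50.4 and 54.6 TPM in yox1∆ and at 52.5, 52.8 and 55.0 TPM in the double deletion. Replicate 1 of yox1∆ was the lowest of these 6 samples and still above wild type. The log2 difference of MCM5 was -0.10 ± 0.13 in yhp1∆, 0.59 ± 0.13 in yox1∆ (limma adjusted p = 0.139) and 0.73 ± 0.13 in the double deletion (0.0302, 1.65-fold), the largest of any member.

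MCM3 was at 39.7, 41.9 and 33.3 TPM in wild type, 33.8, 38.1 and 33.4 TPM in yhp1∆, 45.5, 51.3 and 50.4 TPM in yox1∆, and 54.2, 54.3 and 54.3 TPM in the double deletion. The log2 difference of MCM3 was -0.12 ± 0.11 in yhp1∆, 0.35 ± 0.11 in yox1∆ (limma adjusted p = 0.526) and 0.50 ± 0.11 in the double deletion (0.0903). The double deletion samples were nearly equal and above every sample of the other 3 strains.

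MCM2 was at 23.2, 22.7 and 18.1 TPM in wild type, 22.7, 22.6 and 23.5 TPM in yhp1∆, 25.0, 25.9 and 28.2 TPM in yox1∆, and 30.3, 29.9 and 31.5 TPM in the double deletion. MCM6 was at 24.4, 21.4 and 22.0 TPM in wild type, 22.1, 20.9 and 24.1 TPM in yhp1∆, 26.1, 25.5 and 27.8 TPM in yox1∆, and 28.4, 29.3 and 30.9 TPM in the double deletion. For both genes the yox1∆ samples lay above wild type and the double deletion samples above yox1∆, without overlap. In yox1∆ the log2 differences of MCM2 and MCM6 were 0.30 ± 0.11 and 0.22 ± 0.09, the smallest of the members. In the double deletion they were 0.51 ± 0.11 (limma adjusted p = 0.0791) for MCM2 and 0.37 ± 0.09 (0.244) for MCM6.

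Among all 6311 genes tested 0.127% were called in yhp1∆ against wild type, 0.364% in yox1∆ and 0.634% in the double deletion. Of the 6 members limma called 0, 2 and 5, each of those called being higher. For yhp1∆ the count at an unadjusted p below 0.05 was also 0, as was that of limma-voom. The members' median log2 difference was -0.01, 0.44 and 0.51, and that of all genes was 0.01, -0.04 and 0.03.

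The number of members called depended on single libraries, in fits that also called fewer of all genes. Without 1 sample the count over all genes went from 23 to between 14 and 22 in yox1∆. In the double deletion it went from 40 to between 17 and 34. In yox1∆ the count of members was 0 without wild type replicate 2 or 3 or without yox1∆ replicate 2 or 3. It was 1 without wild type replicate 1 and 2 without yox1∆ replicate 1. For the double deletion the count of members was 4 without wild type replicate 1, 1 without replicate 2 and 0 without replicate 3 or without any 1 of the mutant samples. All 6 members stayed above wild type in both comparisons in every such fit, the lowest value being 0.18 for MCM6 in yox1∆.

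The second question was what the double mutant adds to each single mutant. In the deletion set the double mutant was above yhp1∆ for all 6 members, and 4 of them were called. Against yox1∆ the differences were small or near 0. In the phosphomutant set no member was called in either comparison.

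In yhp1∆ yox1∆ against yhp1∆ the log2 difference was 0.82 ± 0.13 for MCM5 (limma adjusted p = 0.0127), 0.62 ± 0.11 for MCM3 (0.0237), 0.60 ± 0.12 for MCM7 (0.0504) and 0.49 ± 0.10 for MCM4 (0.0777). MCM2 and MCM6 had 0.40 ± 0.11 (0.272) and 0.39 ± 0.09 (0.211). All double deletion samples lay above all yhp1∆ samples for each of the 6 genes, and the share of all genes without such overlap was not counted. Of all genes 0.539% were called. At an unadjusted p below 0.05 there were 6 members and 4.91% of all genes. Without 1 of the yhp1∆ or double deletion samples the count of members called was between 1 and 3, and it was 1 without yhp1∆ replicate 1 or 3 and without any 1 of the double deletion samples. The count over all genes was between 19 and 29 in these fits, against 34 with all samples.

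Against yox1∆, 0 members and 0.57% of all genes were called, and limma-voom called 0 members. At an unadjusted p below 0.05 there were 0 members and 13.1% of all genes. The log2 difference was 0.00 for MCM4 (95% interval -0.22 to 0.22), -0.01 for MCM7 (-0.26 to 0.25), 0.14 for MCM5 (-0.14 to 0.42), 0.14 for MCM3 (-0.09 to 0.37), 0.15 for MCM6 (-0.05 to 0.36) and 0.21 for MCM2 (-0.02 to 0.44). These intervals leave room for a further rise of up to 0.44 on the log2 scale. The double deletion samples lay above all yox1∆ samples for MCM2, MCM3 and MCM6, and overlapped them for MCM4, MCM5 and MCM7. The share of all genes without overlap was not counted. The median log2 difference was 0.14 for the members and 0.05 for all genes. With median-of-ratios scaling these medians were 0.09 and -0.001.

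Set directly against yhp1∆, yox1∆ had higher MCM5 (0.68 ± 0.13, limma adjusted p = 0.0401), MCM7 (0.61 ± 0.12, 0.0440) and MCM4 (0.49 ± 0.10, 0.0671), or 3 of 6 members called where 0.634% of all genes were. MCM3 had 0.47 ± 0.11 (0.111), and MCM2 and MCM6 had 0.19 ± 0.11 and 0.23 ± 0.09. At an unadjusted p below 0.05 there were 5 members and 3.72% of all genes. The samples of the 2 strains did not overlap for any member, and the share of all genes without overlap was not counted. The count of members called was 0 without yhp1∆ replicate 1 or 3 or yox1∆ replicate 2 or 3, 1 without yox1∆ replicate 1 and 2 without yhp1∆ replicate 2. Over all genes these fits called between 22 and 34, against 40 with all samples. These strains also differ in lys2∆0 against met15∆0 and in the LEU2 and KanMX markers, whose part was not tested.

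In the double phosphomutant against yhp1-13A, 0 members and 0% of all genes were called, and limma-voom called 0 members. At an unadjusted p below 0.05 there were 2 members and 0.760% of all genes. The members' log2 differences ran from -0.11 for MCM6 to -0.41 for MCM5 and MCM7. Against yox1-9A they were 0.01 for MCM5 (95% interval -0.29 to 0.31), 0.00 for MCM4 (-0.32 to 0.31), 0.05 for MCM3 (-0.22 to 0.31), -0.12 for MCM7 (-0.48 to 0.24), -0.14 for MCM6 (-0.62 to 0.34) and -0.27 for MCM2 (-0.68 to 0.14). Here 0 members and 0.348% of all genes were called, with 0 members by limma-voom. At an unadjusted p below 0.05 there were 0 members and 4.16% of all genes. Between the singles, yox1-9A minus yhp1-13A was -0.42 ± 0.14 for MCM5 (limma adjusted p = 0.731) and between -0.29 and 0.03 for the others. For this pair 0 members and 0.301% of all genes were called, and limma-voom called 0 members. An unadjusted p below 0.05 was found for 1 member and for 3.36% of all genes. With the replicate block, where same-numbered samples of these singles had correlations of 0.12 to 0.65, the count over all genes rose from 19 to 59 and that of members stayed at 0.

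The interaction term asks whether the double mutant differs from the sum of both single effects. It was between -0.04 and 0.26 on the log2 scale for the members among the phosphomutants and between -0.03 and 0.26 among the deletions. In both sets 0 members were called by limma, at an unadjusted p below 0.05 or by limma-voom, where 0.0317% and 0.19% of all genes were called. Of all genes 1.74% and 6.51% had an unadjusted p below 0.05. MCM5 had 0.26 ± 0.19 among the phosphomutants and 0.24 ± 0.18 among the deletions, where MCM3 had the highest value at 0.26 ± 0.15.

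**Figure D4:**
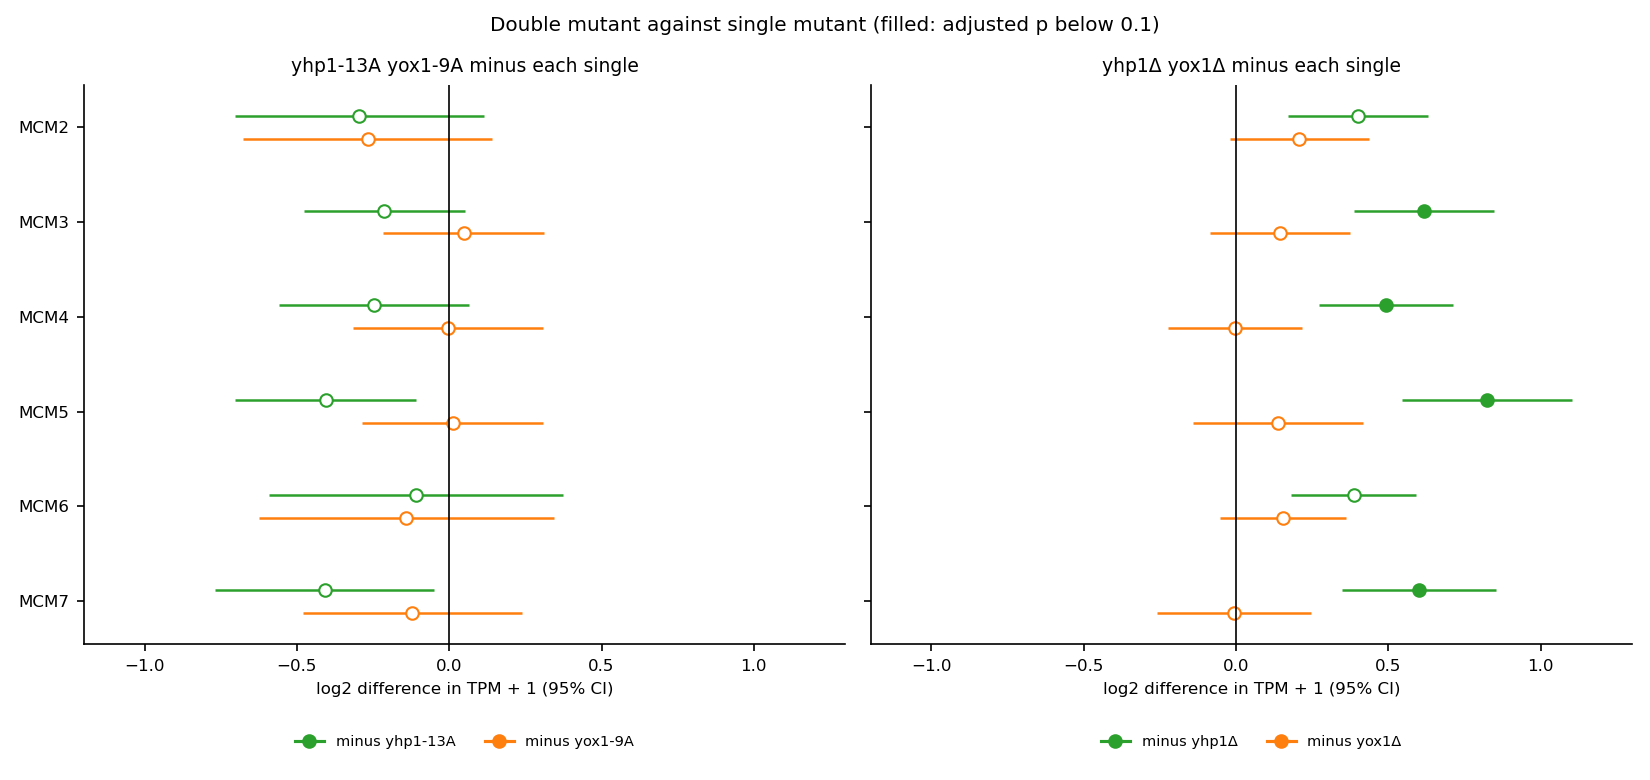
Log2 difference in TPM + 1 between each double mutant and its single mutants, with 95% confidence intervals from limma and filled points for an adjusted p below 0.1. In the deletion set the differences from yhp1∆ lie between 0.39 and 0.82 and 4 points are filled, while those from yox1∆ lie between -0.01 and 0.21. In the phosphomutant set the intervals of the differences from yox1-9A all include 0.

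The balance among the members is given as the share of each in their sum. The share of MCM5 in the summed TPM of the 6 genes was 17.0% ± 0.72 in wild type of the phosphomutant set (n = 3), 14.0% ± 1.27 in yox1-9A and 14.8% ± 0.77 in the double phosphomutant. In the deletion set it was 17.5% ± 0.36 in wild type, 19.2% ± 1.57 in yox1∆ and 19.8% ± 0.09 in the double deletion. The shares of yox1-9A (12.7% to 15.3%) lay below those of wild type (16.5% to 17.9%), and those of the double deletion (19.7% to 19.9%) lay above those of wild type (17.1% to 17.9%). The shares of yox1∆ (17.4% to 20.3%) overlapped those of wild type. The share of MCM6 went the other way, from 11.9% ± 1.11 to 13.7% ± 1.29 in yox1-9A and from 12.4% ± 1.26 to 10.5% ± 0.52 in yox1∆. That of MCM2 did too, from 12.6% ± 0.63 to 13.9% ± 1.24 and from 11.6% ± 0.34 to 10.4% ± 0.20. For both genes the ranges overlapped in the first case and not in the second. A share is relative to the other members. The mean TPM of MCM6 fell from 23.9 to 20.6 in yox1-9A and rose from 22.6 to 26.5 in yox1∆. With 3 samples against 3 an exact permutation test cannot go below p = 0.1, and no test was run on these shares.

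The gene across the shared upstream region of MCM5 was the only neighbour that was called in any comparison. PIG1, which encodes a protein known as a putative targeting subunit of the Glc7 phosphatase in glycogen metabolism, is at chrXII:689083-691029 on the minus strand. It is transcribed away from MCM5, with 525 bases between both start codons. The CCNNNNNNGG match shown for MCM5 begins 375 bases before the start codon of PIG1.

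PIG1 was at 7.77, 8.51 and 6.82 TPM in wild type of the phosphomutant set, 6.07, 4.30 and 5.50 TPM in yhp1-13A, 3.95, 4.44 and 3.85 TPM in yox1-9A, and 3.67, 3.94 and 3.94 TPM in the double phosphomutant. In the deletion set PIG1 was at 6.86, 7.43 and 5.60 TPM in wild type, 7.44, 9.50 and 6.65 TPM in yhp1∆, 11.9, 11.9 and 10.5 TPM in yox1∆, and 16.6, 17.5 and 18.1 TPM in the double deletion. All phosphomutant samples lay below wild type, and both strains with yox1∆ lay above it.

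The log2 difference of PIG1 from wild type was 0.71 ± 0.14 in yox1∆ (limma adjusted p = 0.0699), 1.27 ± 0.14 in the double deletion (0.000673) and 0.21 ± 0.14 in yhp1∆. For the phosphomutants it was -0.77 ± 0.16 in yox1-9A (0.133, or 0.0789 with the replicate block), -0.84 ± 0.16 in the double (0.294) and -0.47 ± 0.16 in yhp1-13A (0.908). The double deletion exceeded yox1∆ by 0.57 ± 0.14 for PIG1 (0.170), where the difference for MCM5 was 0.14 ± 0.13. The call of PIG1 in yox1∆ was lost without wild type replicate 1 or 3 or without any 1 of the yox1∆ samples, at adjusted p of up to 0.353, and that in the double deletion kept an adjusted p of at most 0.00669 with any 1 sample left out.

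**Figure D5:**
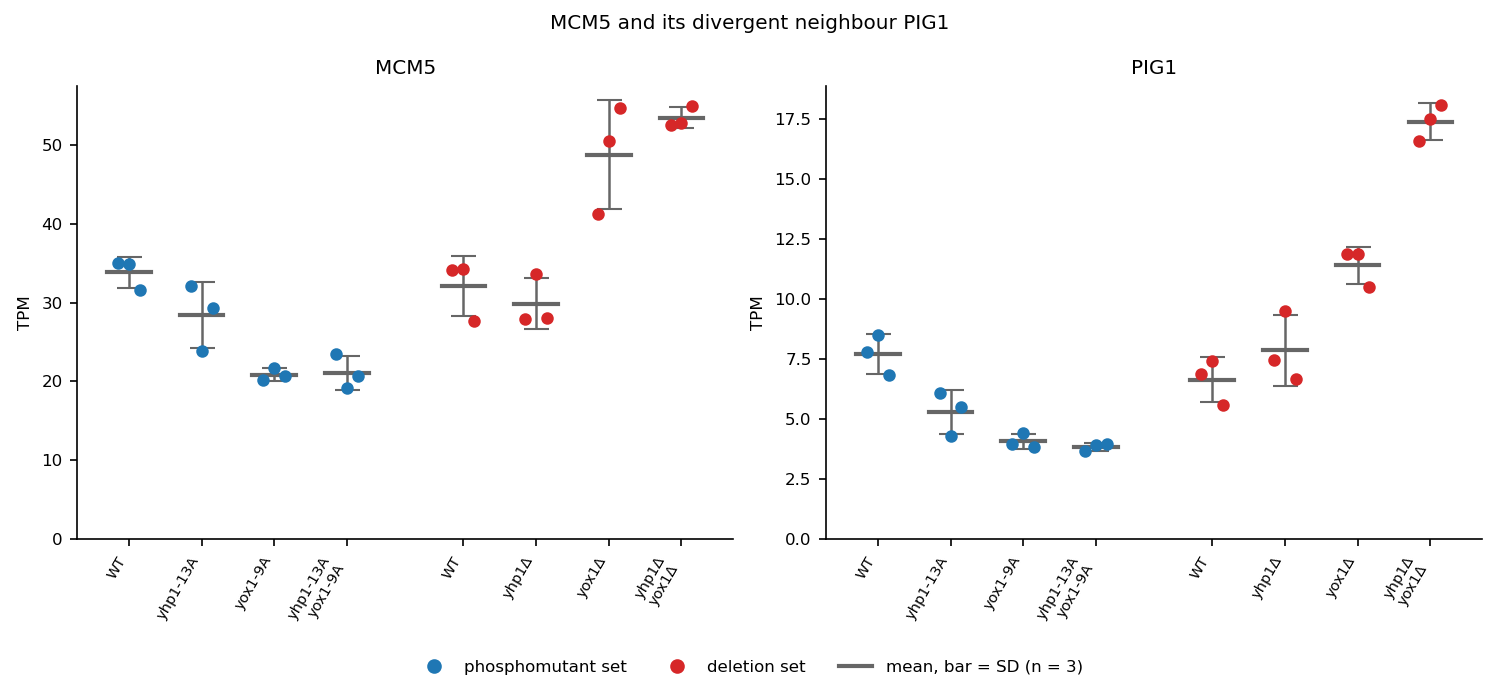
TPM of MCM5 and of its divergent neighbour PIG1 in each of the 24 samples, with the mean and SD of 3 samples per strain and a separate scale for each gene. Both genes are lower than wild type in yox1-9A and the double phosphomutant and higher in yox1∆ and the double deletion. PIG1 reaches 16.6 to 18.1 TPM in the double deletion, against 10.5 to 11.9 TPM in yox1∆.

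The other 11 neighbours were not called in any of the 14 comparisons. They were NCL1 and PIM1 beside MCM2, MTC7 and SPF1 beside MCM3, RLF2 and ATP20 beside MCM4, SMD2 beside MCM5, ARO8 and EMP24 beside MCM6, and MIN7 and COS111 beside MCM7. MIN7 is also transcribed away from its member, with 1075 bases between.

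The other genes that load and activate the helicase were counted in the same way. Of the 20 genes of the origin recognition complex (ORC1 to ORC6), the loading factors CDC6 and TAH11, and the activation factors MCM10, CDC7, DBF4, CDC45, SLD2, SLD3, SLD7, DPB11, PSF1, PSF2, PSF3 and SLD5, 0 were called in any comparison. Their median log2 difference from wild type was -0.09 in yox1-9A, -0.18 in yhp1-13A and -0.21 in the double phosphomutant. It was -0.01 in yhp1∆, -0.09 in yox1∆ and 0.14 in the double deletion. Means were lower than wild type for 17 of these 20 genes in yox1-9A, 19 in yhp1-13A and 17 in the double phosphomutant. The median of all genes was also below 0 there, at -0.08, -0.11 and -0.12 in the same order. In the double deletion 15 of 20 were higher, where the median of all genes was 0.03. The share of all genes that were lower or higher was not counted, so these counts are not read as following the members. The median of all genes in yox1∆ was -0.04. In yox1∆, where all 6 members were higher, 17 of these 20 genes were lower and the highest was CDC6 at 0.47 ± 0.20 (limma adjusted p = 0.972).

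Mcm1 and the M/G1 genes were examined because several members are known Mcm1 targets of that stage. Of MCM1 itself, the G1 cyclin CLN3, the G1/S regulator SWI4, CDC6 and the Cdk inhibitor FAR1, 0 were called. Their median log2 difference was -0.02 in yox1-9A, -0.13 in yhp1-13A and -0.11 in the double phosphomutant, and it was 0.14 in yox1∆, -0.04 in yhp1∆ and 0.19 in the double deletion. MCM1 had between -0.12 and 0.19 in these 6 comparisons with an SE of 0.24 among phosphomutants and 0.35 among deletions. SWI4 had 0.37 ± 0.13 in yox1∆ and 0.52 ± 0.13 in the double deletion (limma adjusted p = 0.215).

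Genes of other cell cycle stages were counted in the same way, as the cultures were asynchronous. Of 7 G1/S genes, 8 histone genes and 5 G2/M genes, 0 were called in any comparison. Their median log2 differences in yox1-9A were -0.10, -0.14 and 0.03, and in the double phosphomutant -0.08, -0.05 and -0.12. In yox1∆ they were 0.06, -0.03 and 0.08, and in the double deletion 0.05, 0.13 and -0.06. The members' medians in the same 4 comparisons were -0.33, -0.45, 0.44 and 0.51. The study also measured cell cycle stages of asynchronous cells by flow cytometry, which is not used here, and the part of cell cycle stage in these differences was not tested.

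Over the 12 samples of a set, each member followed the mean of the other 5 with a Pearson r of 0.76 (MCM6) to 0.98 (MCM4) among phosphomutants and 0.86 (MCM6) to 0.98 (MCM5) among deletions. These points share libraries and strains, so the values are descriptions. Ranked by this r among 6311 genes, the phosphomutant set had MCM4 at 1, MCM7 at 3, MCM2 at 9, MCM5 at 86, MCM3 at 122 and MCM6 at 162. In the deletion set the members were at 1 to 12 of 6306 genes. Many non-member genes thus followed the mean more closely than MCM3, MCM5 and MCM6 did among phosphomutants. The other genes most like the mean of the 6 members, by the smaller of the r in both sets, were HST4, a histone deacetylase gene (0.87), PIG1 (0.84), the uncharacterised YNL146W (0.84), the NAD kinase gene YEF1 (0.84), ICS2 (0.81), DBF2, a mitotic exit kinase gene (0.80), BEM1, a polarity scaffold gene (0.77), and KDX1 (0.75). Of the M/G1 list, SWI4 was 64th of 6269 genes in this order, CDC6 was 1325th and CLN3 was 5915th. CLN3 had an r of -0.55 among phosphomutants and 0.46 among deletions. The positions of MCM1 and FAR1 are not given.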

How the data were processed

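RNA was prepared with poly-A purification according to the methods, whereas the labels name its depletion. The authors aligned reads to R64-1-1 with STAR 2.5.3a and counted fragments of mapping quality above 20 on exons with featureCounts 1.5.2. The authors deposited TPM, scaled for gene length and depth within each sample, for 7126 genes in 2 tables. All sample columns were used (0 left out). Of the identifiers 6048 matched the RefSeq annotation of R64, read with Biopython 1.88, and 94.4% of these had the same length.

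limma 3.58.1 (R 4.3.3) was run on log2(TPM + 1), a scale that understates changes of low genes. A gene was kept where its mean over a set of 12 samples reached 1 TPM (6316 and 6311 genes). One model held all 4 groups of a set, eBayes used a trend, and two-sided p-values were adjusted over all genes tested. Fragments were recovered from TPM and length (100% of genes whole within 0.05), which gave the depths. The SE covers the spread between cultures, and the depth limits counting error only. On simulated data with 200 changed genes, 80% were recovered for the double phosphomutant (6319 genes) and 87% for the double deletion (6312 genes). The size given to these 200 differences is not reported here. The shares are not read as recovery at the size of the members' differences, which was not tested.

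The members and lists were chosen with earlier results of these data known. The genes named are the 6 members, YOX1 and YHP1, the protein-coding gene on each side of each member, called genes of the helicase list, the M/G1 list, and the 8 genes most like the members. CDC6 and SWI4 values were picked out after they were seen. Same-numbered samples deviated together in all 3 pairs, with r above 0.1, for wild type and yox1-9A, yhp1-13A and yox1-9A, yhp1-13A and the double phosphomutant, and wild type and yhp1∆. This pairing comes from the data and not from a stated shared day. Alternatives were a pseudocount of 0.1, no filter or one at 10 TPM, median-of-ratios scaling, the replicate block, only the 2 groups compared, the score sign on the main residual component as a term, limma-voom on fragments, a threshold of 0.05 and leaving out each sample. One further gene list is not reported here.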

Additional observations from a re-analysis of the deposited data

How the results depend on the processing

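Over the alternatives and the fits without 1 sample, 0 called differences of members changed sign. For yox1-9A against wild type the count of members called went from 0 to 1 with no filter, with a mean of at least 10 TPM, with median-of-ratios scaling, with the replicate block and with limma-voom, and to 3 with the residual component term. For the double phosphomutant it went from 0 to 2 with the replicate block, whose numbers pair those samples only in part, and to 3 with the residual component term, and for yox1-9A against yhp1-13A from 0 to 1 with that term. For yox1∆ against wild type it went from 2 to 0 at a threshold of 0.05 and with only the 2 groups compared. For the double deletion it went from 5 to 1 at 0.05, to 3 with median-of-ratios scaling and to 1 with only the 2 groups compared. Against yhp1∆ it went from 4 to 2 at 0.05 for the double deletion and from 3 to 0 for yox1∆ with only the 2 groups compared. Over the same alternatives the count over all genes ran from 6 to 104 for yox1-9A and 0 to 29 for the double phosphomutant. For yox1-9A against yhp1-13A it ran from 12 to 74. It ran from 14 to 43 for yox1∆ and 27 to 92 for the double deletion. Against yhp1∆ it ran from 28 to 847 for the double deletion and 19 to 64 for yox1∆. Apart from those below, the counts over all genes for single settings are not given. The causes of these changes were not tested. Fits with only the 2 groups compared use fewer samples, and the part of that was not tested either. Without 1 sample the count of members called lay between 0 and 2 for yox1∆, 0 and 4 for the double deletion, 1 and 3 for the double deletion against yhp1∆, and 0 and 2 for yox1∆ against yhp1∆, and it stayed at 0 in the other comparisons. The count over all genes in these 4 comparisons lay between 14 and 22, 17 and 34, 19 and 29, and 22 and 34, in the same order. The replicate block also took yox1∆ against yhp1∆ from 3 to 4 and changed no other count of members called. Among all genes, that block and the residual component term gave more calls, 52 and 104 against 18 for yox1-9A, 29 and 26 against 1 for the double phosphomutant, 43 and 36 against 23 for yox1∆, and 58 and 92 against 40 for the double deletion. For the double deletion against yhp1∆ the term gave 847 against 34 genes, and against yox1∆ 1017 against 36, so its member counts stand beside far more calls. Those were 3 for yox1∆, 6 for the double deletion, 6 for the double deletion against yhp1∆ and 4 for yox1∆ against yhp1∆, where limma-voom gave 3, 5, 6 and 4, and the counts reported are 2, 5, 4 and 3. Counting error is small at 858 fragments or more per member, and the number of cultures limits precision.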
